A study of Rattus norvegicus with 141 samples.

Results

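The liver and the stomach of rats that had received only a vehicle were compared across all measured genes. The libraries were chosen by their labels alone: those of liver or stomach whose treatment label named the vehicle control, joined gene by gene over 30562 gene identifiers. This gave 32 of the 141 libraries of the series, 16 of each organ, with 8 from males and 8 from females in each. The series examined rats given microplastics in 2 dose groups, labelled low-dose and high-dose, against vehicle in 3 organs. The libraries of exposed rats of both groups entered here only as a second set of animals for the same comparison of organs. All 32 libraries came from adult Sprague-Dawley rats, an outbred laboratory stock, that were labelled wild type and ate standard rodent chow. The labels gave no composition of the vehicle and no region of the stomach, and did not say which liver and which stomach came from 1 rat. Nor did they say that each library was a separate animal, so p-values rest on the variation among these samples, which may be technical in part. Frozen pieces of an organ were ground together before extraction, and polyadenylated RNA was sequenced, so each library mixed the layers and cell types of its organ.

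The liver is the main source of plasma proteins: its hepatocytes secrete albumin, clotting factors and complement, make bile acids, dispose of ammonia as urea, release glucose and metabolize foreign compounds through cytochromes P450. The glandular stomach secretes acid from parietal cells, pepsinogen from chief cells and a protective mucus from surface and neck cells, and its endocrine cells release ghrelin, gastrin, somatostatin and histamine. The rat stomach also has a forestomach, a pouch lined by keratinized squamous epithelium, and the whole organ lies within a thick coat of smooth muscle. Both organs arise from the foregut endoderm and share regulators such as the forkhead factors FOXA1 and FOXA2. In rats the liver differs strongly between the sexes, because the pattern of growth hormone release, pulsed in males and steadier in females, sets the expression of many of its enzymes.

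The liver libraries held 6153368 to 20743089 counts (median 11267731.5) and the stomach libraries 5926749 to 16172910 (median 8853647.5). Values are given as CPM, counts scaled to library size by the trimmed mean of M values (TMM). They are not divided by gene length, so ranks and shares of different genes describe counts and not molecules. A log2 ratio is stomach over liver, so a negative value means higher in liver, and it is given with its standard error and a p-value adjusted by Benjamini and Hochberg over all 15127 tested genes, called under 0.05. Pairs of libraries of the same organ correlated at 0.9497 to 0.9948 in log2 CPM, and pairs of different organs at 0.7407 to 0.8075. At this separation 12814 genes (84.7%) were called, 6751 (44.6%) higher in stomach and 6063 (40.1%) higher in liver, so a call on its own says little about a gene. The direction of the smaller differences rested on the scaling. TMM gave stomach libraries factors of 1.371 to 1.508 and liver libraries 0.579 to 0.7696. Scaling by total counts alone moved the median log2 ratio up by 1.048, turned 3336 of the liver calls toward stomach and made 83.56% of calls higher in stomach instead of 52.68%. A fold beyond 2 was therefore tested as well: 3899 genes (25.8%) passed higher in stomach and 2514 (16.6%) higher in liver. All 16 libraries of an organ lay above all 16 of the other for 3499 genes in stomach (23.1%) and 2573 in liver (17.0%). The libraries carried 3 batch labels, and within batch 1 and batch 2 alone 11971 and 11959 genes were called, 6202 and 6388 of them beyond 2-fold. Batch 3 held male libraries only. The median log2 ratio of all tested genes was 0.063. In bulk tissue, fewer cells of a type and less RNA per cell cannot be told apart.

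Promoters of 4 genes are shown because they stand for the most one-sided abundant genes of each organ: Alb and Gc, which encode the plasma carriers albumin and vitamin D-binding protein, and Pgc and Gkn2, which encode pepsinogen C of chief cells and gastrokine 2 of mucous surface cells. Each is 300 bases from RefSeq on build GRCr8, from 250 bases before to 50 bases after the annotated start, read 5′ to 3′ along the gene. The Alb window is chr14:17906930-17907229 on the minus strand and the Gc window chr14:18916005-18916304 on the plus strand. The Pgc window is chr9:20763171-20763470 on the minus strand and the Gkn2 window chr4:121375344-121375643 on the plus strand. Capitals mark matches to motifs searched on both strands: the HNF1 motif GTTAATNAT, the C/EBP motif TTNCNNAA, the GATA motif AGATAA and the TATA motif TATAAA.
Alb: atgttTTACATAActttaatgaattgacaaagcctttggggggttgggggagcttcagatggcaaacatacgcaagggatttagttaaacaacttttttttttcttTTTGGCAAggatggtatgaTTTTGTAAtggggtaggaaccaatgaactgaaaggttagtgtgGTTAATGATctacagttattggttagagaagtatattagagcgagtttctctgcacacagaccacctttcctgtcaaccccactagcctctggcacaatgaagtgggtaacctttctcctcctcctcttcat
Gc: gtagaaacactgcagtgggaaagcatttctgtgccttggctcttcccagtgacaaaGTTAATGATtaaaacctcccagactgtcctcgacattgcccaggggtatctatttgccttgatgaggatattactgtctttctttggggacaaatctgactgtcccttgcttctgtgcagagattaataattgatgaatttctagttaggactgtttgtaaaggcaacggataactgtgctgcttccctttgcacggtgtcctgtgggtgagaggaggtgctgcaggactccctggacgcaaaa
Pgc: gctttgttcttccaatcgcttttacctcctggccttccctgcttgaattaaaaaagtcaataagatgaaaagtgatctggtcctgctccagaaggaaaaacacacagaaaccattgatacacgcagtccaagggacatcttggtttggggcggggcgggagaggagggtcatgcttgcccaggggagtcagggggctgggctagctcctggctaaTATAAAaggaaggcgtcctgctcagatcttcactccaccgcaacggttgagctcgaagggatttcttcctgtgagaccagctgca
Gkn2: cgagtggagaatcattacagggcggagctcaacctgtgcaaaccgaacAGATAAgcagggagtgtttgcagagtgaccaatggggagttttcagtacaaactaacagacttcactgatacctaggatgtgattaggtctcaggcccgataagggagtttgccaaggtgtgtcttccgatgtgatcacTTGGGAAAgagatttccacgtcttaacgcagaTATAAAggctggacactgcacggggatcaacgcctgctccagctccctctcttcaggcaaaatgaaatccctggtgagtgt

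The Alb window held an HNF1 match from -82 to -74 and 3 C/EBP matches, and the Gc window an HNF1 match from -194 to -186. The Pgc window held a TATA match from -35 to -30. The Gkn2 window held a TATA match from -31 to -26, a GATA match from -202 to -197 and a C/EBP match from -63 to -56. HNF1 is a homeodomain factor of liver and other endodermal epithelia. Its motif stood in 0.75% of all 27457 RefSeq windows and in 0.559% of those of tested genes. Among windows of genes beyond 2-fold it stood in 1.41% of those higher in liver (27 of 1919) and in 0.389% of those higher in stomach (11 of 2830). It stood in 3 of 32 windows of plasma protein genes (9.38%) and 3 of 18 of coagulation factor genes (16.7%). Of the gastric lists it stood in 1 of 15 windows of mucous surface and neck cell genes (6.67%) and in 0 of those of parietal, chief, squamous and smooth muscle genes. The C/EBP motif, bound by a family of leucine zipper factors, is short and stood in 38% of the liver windows, 28.6% of the stomach windows and 31.8% of windows of tested genes. The TATA motif stood in 10.6% and 9.33% against 7.47%, and the GATA motif in 7.56% and 7.21% against 6.74%, in the same order. These are matches of letters and describe no binding.

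In both organs genes of secreted proteins were among those with the most counts, and in liver more of them were. Shares of counts depend on gene length and are not shares of messenger RNA molecules. Alb held 6.69% to 13.5% of all counts in liver (median 8.97%) and 0% to 0.00302% in stomach (median 0.00100%). Pgc held 0% to 0.00402% of all counts in liver (median 0.000109%) and 6.29% to 12.9% in stomach (median 9.86%). Each organ was thus led by 1 secreted protein whose transcript was nearly absent from the other. The 10 most abundant genes of a library held 19.9% to 26.9% of its counts in liver (median 21.5%) and 19.98% to 26.0% in stomach (median 22.8%), and these ranges overlapped (two-sided permutation test over libraries, p = 0.28). The 100 most abundant genes held 48.9% to 55.5% in liver (median 50.8%) and 37.2% to 43.2% in stomach (median 40.1%), without overlap. Accordingly 62 to 110 genes held 50% of the counts of a liver library (median 94) and 261 to 432 genes those of a stomach library (median 334). After each library was thinned to 5926729 counts, 14934 to 16451 genes were detected in liver (median 15310) and 17663 to 18495 in stomach (median 17871). By the permutation test each of these last 3 measures gave p = 1e-05, the smallest that 100000 resamples can give, and 1.3e-05 adjusted over 8 measures.

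The 10 most abundant genes of liver were Alb, Tf, Apoe, Mt-co1, C3, Mug1l1, Apob, Mt-co3, Gc and Mup5, of which Mt-co1 and Mt-co3 come from mitochondrial DNA and the rest encode secreted proteins. This order pools the sexes, and Mup5 is in it through male liver, at a mean of 24211 CPM against 3.00 CPM in female liver. Those of stomach were Pgc, Mt-co1, Mt-co2, Mt-co3, Pla2g1b, Mt-atp6, Mt-nd2, Muc5ac, Mt-nd4 and Mt-cyb. Pla2g1b, a secreted phospholipase A2 best known from pancreas, held 0% to 0.000710% of all counts in liver (median 2.03e-05%) and 0.918% to 1.94% in stomach (median 1.38%). Muc5ac, the gel-forming mucin of the gastric surface, held 0% to 0.000429% of all counts in liver (median 1.53e-05%) and 0.708% to 1.596% in stomach (median 1.08%). The 42 plasma protein genes listed together held 21.5% to 28.1% of counts in liver and 0.0616% to 0.0926% in stomach.

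Genes that were high in 1 organ and close to absent from the other were common in both directions. A mean over 100 CPM in liver with a mean under 0.1 CPM in stomach was found for 131 genes, and the reverse for 44. At a mean over 10 CPM the numbers of genes were 206 and 232, and at a mean over 1 CPM 275 and 863. The one-sided genes of liver were thus fewer, but more of them had high counts. Among tested genes, 228 had no count in any liver library and 55 none in any stomach library.

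**Figure D1:**
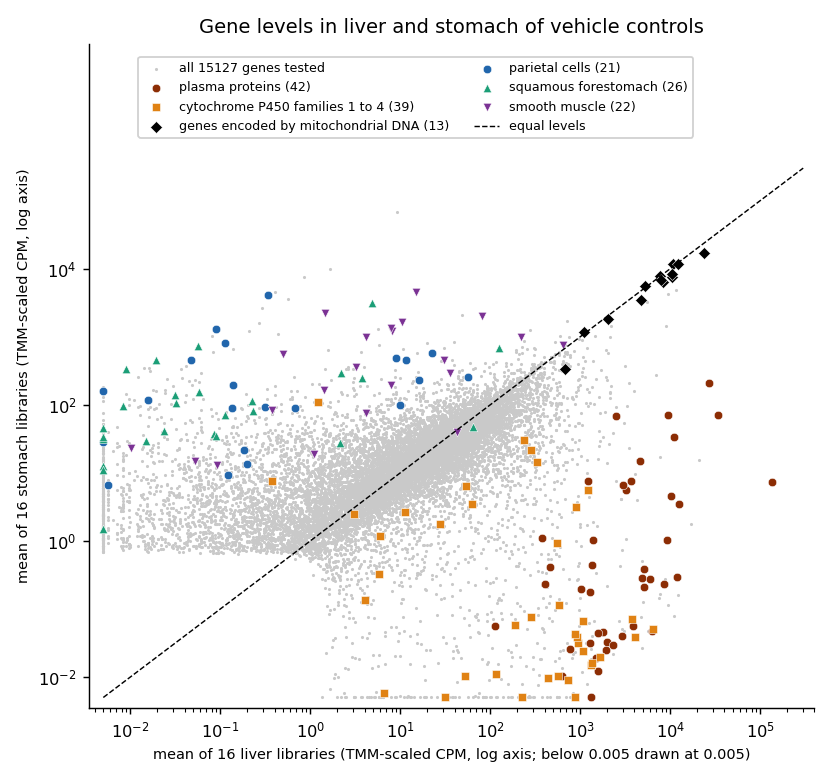
Mean level of each of the 15127 tested genes in the 16 liver libraries (horizontal) and the 16 stomach libraries (vertical), in TMM-scaled CPM on log axes, with 6 gene lists coloured and a dashed line at equal levels; the number beside a list is its tested members. Plasma proteins lie below the line, toward liver, and parietal cell, squamous forestomach and smooth muscle genes mostly above it, toward stomach.

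Among the 12 largest ratios toward liver of genes with a symbol and a mean of at least 100 CPM were those of Serpina3c, Serpina3n, AABR07034632.1, Fgb, Fga, Cyp2c7, Rup2l2, Apoa2, Cyp2e1, Fgl1 and Sult2a1. Serpina3c and Serpina3n encode serine protease inhibitors of a multigene family, whose reads may be shared. Fgb, the fibrinogen beta chain, measured 4509 to 9986 CPM (median 6341) in liver and 0 to 0.185 CPM (median 0.0214) in stomach, a log2 ratio of -16.89 ± 0.21 (adjusted p = 1.3e-34). Apoa2, an apolipoprotein of high density lipoprotein, had 1 count in all stomach libraries together against 714 to 2445 CPM (median 1263) in liver, a ratio of 284802 (95% counting interval 51116 to 11249100.0). Fgl1, a secreted hepatocyte protein, had no count in stomach. Against a floor of 3 counts over the group it was at least 61054-fold higher in liver.

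The 12 largest ratios toward stomach belonged to Sprr3, Atp4b, Asprv1, Cym, Gkn2, Rptn, Gkn1, Sprr1a, Dmkn, Krt13, Atp4a and Serpinb3a. They fall into the forestomach epithelium (Sprr3, Asprv1, Rptn, Sprr1a, Dmkn, Krt13 and Serpinb3a are genes of squamous cornification), the parietal cell proton pump (Atp4a and Atp4b), the milk-clotting protease chymosin (Cym) and gastrokines (Gkn1 and Gkn2). Cym measured 223 to 2235 CPM (median 844) in stomach and at most 0.706 CPM in liver, a log2 ratio of 13.81 ± 0.49 (adjusted p = 2.0e-22). Asprv1, a protease of cornifying epithelium, had no count in any liver library and was at least 8109-fold higher in stomach, where it measured 81.8 to 456 CPM (median 164).

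**Figure D2:**
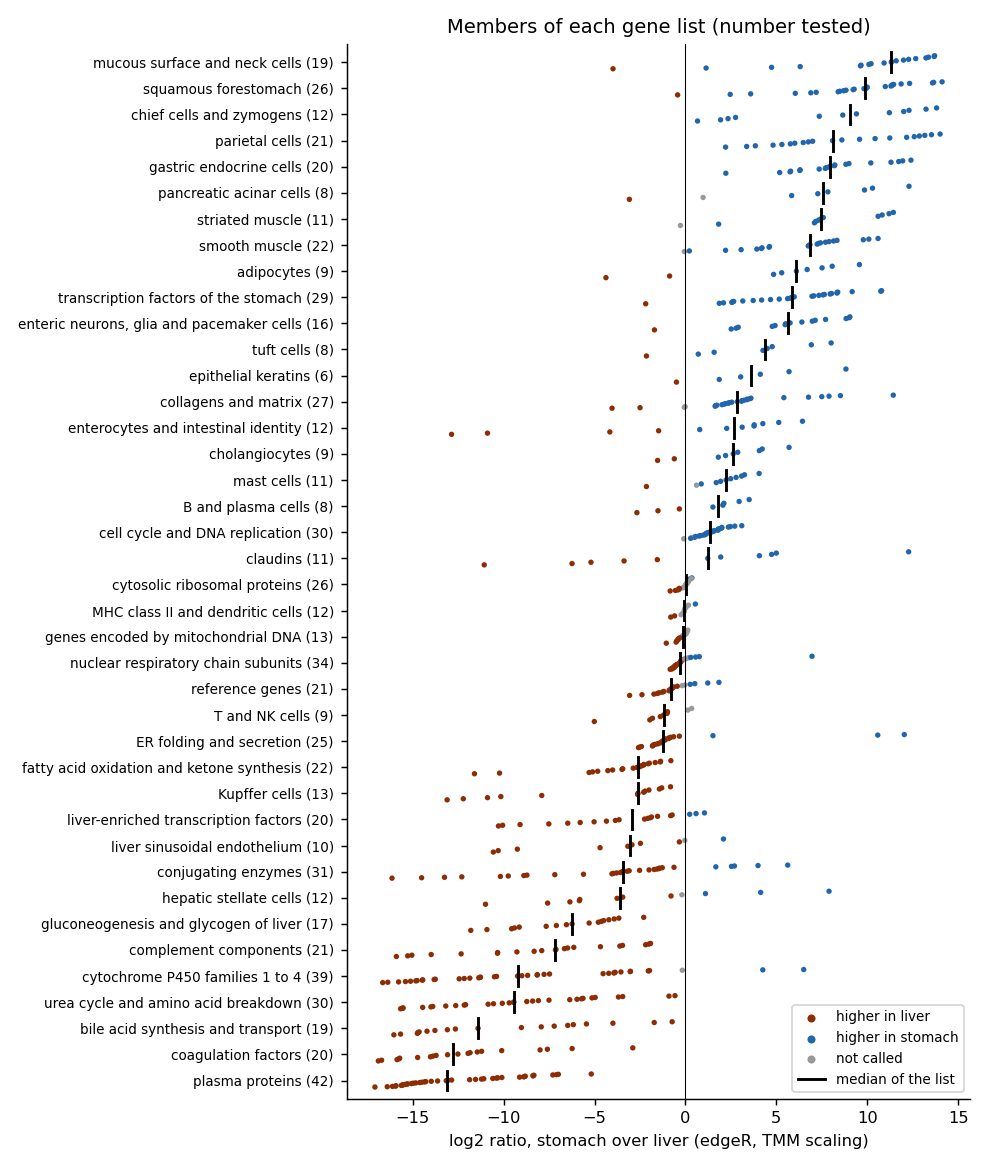
Log2 ratio of stomach over liver for the tested members of each gene list, 1 point a gene, coloured by the organ where it was called higher or grey where it was not called, with the median of the list as a bar and a line at 0. Lists of hepatocyte functions lie to the left, lists of gastric cell types and muscle to the right, and ribosomal and mitochondrial genes near 0.

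Secreted liver proteins were without exception higher in liver. All 42 tested plasma protein genes were called higher there, all 42 beyond 2-fold and without overlap, with a median log2 ratio of -13.11. Tf, the iron carrier transferrin, measured 26798 to 41910.1 CPM (median 33648) in liver and 54.3 to 85.9 CPM (median 71.6) in stomach (log2 ratio -8.90 ± 0.12, adjusted p = 3.7e-34). Apoe, which directs lipoprotein uptake, kept a clear level in stomach, at 139.7 to 407 CPM (median 184) against 20135 to 35173 CPM (median 25736) in liver (log2 ratio -6.99 ± 0.16, adjusted p = 2.7e-28). Gc measured 10029 to 15185 CPM (median 11965) in liver and 0 to 1.23 CPM (median 0.207) in stomach, so its highest stomach value lay far below its lowest liver value. All 20 coagulation factor genes (median log2 ratio -12.80) and all 21 complement genes (-7.15) were also called higher in liver, each without overlap. Plg, which encodes plasminogen, measured 4676 to 5945 CPM (median 5351) in liver and at most 1.26 CPM in stomach. C3, the hub of the complement cascade, had a log2 ratio of -10.34 ± 0.18 (adjusted p = 2.9e-31) and C4a one of -4.67 ± 0.17 (adjusted p = 9.9e-23). C8b, a subunit of the membrane attack complex, had no count in stomach and was at least 50529-fold higher in liver.

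Of 39 tested cytochrome P450 genes of families 1 to 4, which oxidize drugs, steroids and fatty acids, 36 were called higher in liver and 2 in stomach, and 1 was not called. The median log2 ratio was -9.23, or -10.39 with the gene absent from stomach set at its bound. Cyp2e1, which oxidizes ethanol and small solvents, measured 1916 to 6812 CPM (median 3967) in liver and 0 to 0.329 CPM (median 0) in stomach (log2 ratio -16.37 ± 0.28, adjusted p = 7.7e-32). Members of the rat 2C and 3A groups are near-identical copies, and reads may be divided among them. Of 31 genes of conjugating enzymes, which attach glutathione, sulfate or glucuronic acid, 26 were higher in liver and 5 in stomach (median -3.45). Mgst1, a microsomal glutathione transferase, had a log2 ratio of -7.18 ± 0.15 (adjusted p = 2.7e-29). Sult1c2, a cytosolic sulfotransferase, went the other way, with 11.2 to 53.1 CPM (median 27.1) in liver and 54.0 to 283 CPM (median 196) in stomach (log2 ratio 2.53 ± 0.26, adjusted p = 1.6e-10).

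Bile acid synthesis and transport showed the same one-sidedness, with 19 of 19 genes higher in liver and a median log2 ratio of -11.41. Slco1b2, a sinusoidal uptake carrier, and Abcb11, the canalicular bile salt export pump, measured 1570.5 and 1081 CPM at the median in liver and 0 and 0.118 CPM in stomach. Slc10a1, the sodium-dependent bile acid carrier, had no count in stomach and was at least 55440.1-fold higher in liver. Baat, which joins bile acids to amino acids, had a log2 ratio of -14.21 ± 0.24 (adjusted p = 1.1e-31). Cyp7a1, the rate-limiting enzyme of bile acid synthesis, measured 28.4 to 427 CPM (median 101) in liver. It had 1 count over all stomach libraries, a ratio of 29891 (95% counting interval 5365 to 1180640.0).

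All 30 genes of the urea cycle and amino acid breakdown were higher in liver (median -9.45). Bhmt, which remethylates homocysteine, measured 4956 to 14903 CPM (median 7174) in liver and 0 to 0.648 CPM (median 0.109) in stomach (log2 ratio -15.54 ± 0.28, adjusted p = 3.1e-31). Ass1 and Arg1, enzymes of the urea cycle, kept low but measurable stomach levels of 7.30 to 12.2 and 3.11 to 6.01 CPM. In liver they measured 3171 to 4749.7 and 624.9 to 2275 CPM. Tat, tyrosine aminotransferase, and Agxt, alanine-glyoxylate aminotransferase, had no count in stomach and were at least 40112-fold and 12726-fold higher in liver. All 17 genes of gluconeogenesis and glycogen were higher in liver as well (median -6.23). Pck1, which commits carbon to glucose synthesis, measured 648 to 5337 CPM (median 2444) in liver and 0.371 to 15.7 CPM (median 3.45) in stomach (log2 ratio -9.40 ± 0.41, adjusted p = 6.8e-20). G6pc1, the catalytic subunit that releases free glucose, was less one-sided, at 186 to 730.2 CPM (median 353) in liver and 59.3 to 95.3 CPM (median 68.0) in stomach (log2 ratio -2.29 ± 0.13, adjusted p = 3.7e-17). No stomach library was close to 0 for G6pc1.

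All 22 genes of fatty acid oxidation and ketone synthesis were called higher in liver, 21 of them beyond 2-fold, with a median log2 ratio of -2.60. Fabp1, the liver fatty acid binding protein, had a ratio of -11.60 ± 0.25 (adjusted p = 8.9e-29). Hadha, a subunit of the mitochondrial trifunctional protein, differed less, at -1.39 ± 0.08 (adjusted p = 1.6e-17). Chaperones and folding enzymes of the endoplasmic reticulum were higher in liver for 22 of 25 genes (14 beyond 2-fold, median -1.24). P4hb, protein disulfide isomerase, measured 1654 to 2777 CPM (median 1993) in liver and 487 to 732 CPM (median 575) in stomach (log2 ratio -1.81 ± 0.08, adjusted p = 7.2e-21). Agr2, a disulfide isomerase of mucin-secreting cells, was among the 3 higher in stomach, at 95.6 to 343 CPM (median 223) against at most 0.224 CPM in liver.

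Markers of the liver's other resident cells were mostly higher in liver. For Kupffer cells, the resident macrophages, 13 of 13 genes were called higher in liver (median -2.61). Clec4f, a lectin that marks rodent Kupffer cells, measured 148 to 385 CPM (median 191) in liver and at most 0.148 CPM in stomach. Vsig4 and Marco, receptors of the same cells, had no count in stomach and were at least 1601-fold and 4071-fold higher in liver. Genes that macrophages of many organs express were measured in both: Csf1r had a log2 ratio of -1.30 ± 0.12 (adjusted p = 1.5e-11), but of -0.26 and no call with total counts alone (adjusted p = 0.066). For the sinusoidal endothelium 8 of 10 genes were higher in liver (median -3.05), among them Stab2, a hyaluronan scavenger receptor, at 23.4 to 143 CPM (median 71.8) in liver and at most 0.185 CPM in stomach. For hepatic stellate cells 8 of 12 were higher in liver (median -3.60). Their retinoid gene Lrat had a log2 ratio of -5.83 ± 0.21 (adjusted p = 1.1e-22), and 3 were higher in stomach, where Des, the intermediate filament of muscle, led. Listed cholangiocyte genes, which ductal and gastric epithelia share, were higher in stomach for 7 of 9 (median 2.63). Sox9, a ductal and progenitor factor, measured 0.802 to 3.32 CPM (median 1.98) in liver and 24.0 to 50.6 CPM (median 39.6) in stomach.

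In the stomach, all 21 tested parietal cell genes were called higher than in liver, each beyond 2-fold and without overlap (median log2 ratio 8.09). Atp4a and Atp4b encode the subunits of the proton pump that acidifies the stomach. Atp4a measured 2712 to 6485 CPM (median 4103) in stomach and at most 1.98 CPM in liver (log2 ratio 13.53 ± 0.33, adjusted p = 1.5e-27). Cblif, the intrinsic factor that carries vitamin B12, measured 544 to 1552 CPM (median 782) (log2 ratio 12.59 ± 0.30, adjusted p = 8.7e-28). The summed level of the parietal list was 7216 to 13229.7 CPM in stomach and 86.2 to 166 CPM in liver. Slc4a2, a chloride and bicarbonate exchanger that parietal cells use at their base, was expressed in liver too, with 40.1 to 76.8 CPM (median 56.1) there and 175 to 337 CPM (median 260.0) in stomach.

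All 12 tested chief cell genes were higher in stomach (median 9.03), and their summed level reached 48604 to 96970.5 CPM there against 17.7 to 83.4 CPM in liver. Pgc measured 44282 to 93065 CPM (median 66808) in stomach and 0 to 55.7 CPM (median 1.52) in liver (log2 ratio 13.23 ± 0.81, adjusted p = 1.5e-15). Clps, the colipase that assists pancreatic lipase, measured 898 to 2763 CPM (median 1574) in stomach. Ctse, the intracellular aspartic protease cathepsin E, measured 311 to 835 CPM (median 633) against 0.811 to 2.43 CPM (median 1.496) in liver. Chymosin is best known as a stomach protease of suckling mammals, and Cym spanned 223 to 2235 CPM among these adult stomachs, far above the liver range throughout. Male and female stomachs overlapped in Cym, at 223 to 2235 CPM (median 1020.1) and 579 to 1798 CPM (median 844).

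Mucous surface and neck cells contributed 18 of 19 genes higher in stomach, with the largest median toward stomach of the lists, 11.32. Muc5ac measured 4973 to 11134 CPM (median 7448) in stomach and at most 5.93 CPM in liver (log2 ratio 13.23 ± 0.43, adjusted p = 9.3e-24). Tff1, a trefoil peptide of the surface mucus, had a log2 ratio of 13.37 ± 0.30 (adjusted p = 2.7e-28), and Muc6, the mucin of the gland necks, one of 11.34 ± 0.28 (adjusted p = 1.9e-27). The endocrine list was higher in stomach for 20 of 20 genes (median 7.93, or 7.83 with genes absent from liver at their bound). Chga, a granule protein of endocrine cells in general, measured 405 to 2675 CPM (median 926) in stomach and at most 1.82 CPM in liver. Ghrl, which encodes the appetite hormone ghrelin, measured 118 to 323 CPM (median 223), and Hdc, which makes histamine, 39.98 to 239 CPM (median 79.3). Gast, which encodes the antral hormone gastrin, measured 0.168 to 48.0 CPM (median 12.6) in stomach and had 1 count in liver. As a fold of its lowest value, Gast ranged more widely among stomachs than Ghrl. Tuft cell genes, of chemosensory epithelial cells, were higher in stomach for 7 of 8 (median 4.38), with Trpm5, their taste-pathway channel, at 4.54 to 11.9 CPM (median 7.40) against 0 to 0.744 CPM (median 0.282) in liver.

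The forestomach epithelium was represented in every stomach library. Of 26 squamous genes 25 were higher in stomach (median 9.89, or 9.25 with genes absent from liver at their bound), and their summed level was 3730 to 16005 CPM in stomach and 120 to 265 CPM in liver. Krt13, a keratin of stratified mucosa, measured 428 to 1415 CPM (median 684) in stomach and at most 0.282 CPM in liver (log2 ratio 13.59 ± 0.27, adjusted p = 8.0e-30). Krt10, a keratin of the cornifying layers, measured 1175 to 8610.4 CPM (median 2532) against 1.282 to 10.6 CPM (median 4.26) in liver. Krt5, a keratin of the basal layer, measured 91.1 to 261 CPM (median 116). Ivl and Tgm3, which build and cross-link the cornified envelope, had no count in liver and were at least 1477-fold and 1370.1-fold higher in stomach. Dsp, the desmosomal plaque protein desmoplakin, was shared by both organs, at 58.0 to 178 CPM (median 135) in liver and 469 to 1062 CPM (median 662) in stomach (log2 ratio 2.46 ± 0.15, adjusted p = 2.8e-16). Male stomach replicate 6 had the highest summed squamous level and also the highest smooth muscle level. Whether the pieces ground for that library differed was not tested.

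Smooth muscle genes were higher in stomach for 21 of 22, with a median log2 ratio of 6.83 and a summed level of 14189 to 35815 CPM against 779 to 1309 CPM in liver. Actg2, the actin of visceral muscle, measured 1583 to 5158 CPM (median 2113) in stomach and 0.321 to 2.68 CPM (median 1.40) in liver (log2 ratio 10.59 ± 0.24, adjusted p = 3.3e-28). Myh11, smooth muscle myosin, had a log2 ratio of 8.34 ± 0.25 (adjusted p = 8.8e-25). The nervous and pacemaker cells of the wall gave 15 of 16 genes higher in stomach (median 5.63). Ano1, the chloride channel of the pacemaker cells, measured 52.9 to 84.1 CPM (median 69.0) in stomach and 1.05 to 4.14 CPM (median 2.24) in liver, and Nos1, of inhibitory neurons, 7.49 to 20.5 CPM (median 11.3) against 0 to 0.744 CPM (median 0.122). Vip, a neuropeptide, had no count in liver and was at least 261-fold higher in stomach. Of 27 collagen and matrix genes 23 were higher in stomach (median 2.85) and 2 in liver. Those 2 were Fn1, plasma and tissue fibronectin, at -4.03 ± 0.18 (adjusted p = 3.4e-20), and Col18a1, the source of endostatin, at -2.50 ± 0.09 (adjusted p = 3.1e-22). Dcn, the collagen-binding proteoglycan decorin, measured 1043 to 1569 CPM (median 1279) in stomach and 3.00 to 10.6 CPM (median 5.398) in liver.

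Of 20 tested liver-enriched factors 17 were higher in liver and 3 in stomach, with a median log2 ratio of -2.95. Creb3l3, a membrane-bound factor of lipid metabolism, measured 322 to 586 CPM (median 386) in liver and 0.0652 to 1.01 CPM (median 0.241) in stomach (log2 ratio -10.28 ± 0.21, adjusted p = 2.3e-29), and Onecut1, also called HNF6, had a ratio of -10.05 ± 0.35 (adjusted p = 1.2e-22). Hnf4a, a nuclear receptor central to hepatocyte identity, was present in both, at 579 to 1099 CPM (median 709) in liver and 23.7 to 67.9 CPM (median 54.6) in stomach (log2 ratio -3.85 ± 0.10, adjusted p = 3.0e-27). Of 29 factors of the stomach 28 were higher in stomach and 1 in liver (median 5.87). Sox2, a foregut factor, had no count in liver and was at least 879.7-fold higher in stomach. Foxq1, needed for gastric mucin production in mice, measured 46.4 to 147 CPM (median 109) in stomach and 0 to 0.884 CPM (median 0.158) in liver. Gata4 and Gata6, factors of foregut endoderm and mesoderm, were measured in both organs, with log2 ratios of 2.09 ± 0.09 (adjusted p = 1.4e-20) and 1.86 ± 0.10 (adjusted p = 1.4e-17).

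Tight junction and keratin genes were divided between the organs. Of 11 tested claudins, the strand-forming proteins of tight junctions, 6 were higher in stomach and 5 in liver. Such a division was not particular to claudins, since 44.6% of all tested genes were higher in stomach and 40.1% in liver. Cldn18 measured 97.6 to 238 CPM (median 192) in stomach and 0 to 0.182 CPM (median 0) in liver (log2 ratio 12.28 ± 0.21, adjusted p = 1.4e-31). Cldn2, Cldn1 and Cldn3 ran the other way, with log2 ratios of -6.24, -3.38 and -5.20, and Cldn14 had no count in stomach and was at least 1823-fold higher in liver. The simple keratin gene Krt8, expressed in hepatocytes and gastric epithelium alike, measured 166 to 292 CPM (median 231) in liver and 348 to 1187 CPM (median 875) in stomach (log2 ratio 1.86 ± 0.12, adjusted p = 8.1e-16), while Krt7 had a ratio of 5.70 ± 0.24 (adjusted p = 1.1e-20).

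Cells of the immune system and of neighbouring tissues differed in part. Of 12 tested genes of MHC class II and dendritic cells 9 were not called, a smaller share of calls than the 84.7% of all genes. Cd74, the invariant chain, measured 72.0 to 239.5 CPM (median 124) in liver and 73.2 to 176 CPM (median 122) in stomach (log2 ratio 0.03 ± 0.13, adjusted p = 0.85). This rested on the TMM scale, since with total counts alone Cd74 was called higher in stomach, at 1.08 (adjusted p = 1.3e-08). Of 9 T and NK cell genes 7 were called higher in liver, against 40.1% of all tested genes, and 4 of them passed beyond 2-fold. Their median log2 ratio of -1.20 was close in size to the shift of 1.048 between scalings, so the direction of the smaller ones rested on the scaling. The cytotoxic granule gene Prf1 had -1.96 ± 0.15 (adjusted p = 7.4e-14). Of 8 B and plasma cell genes 5 were higher in stomach. Jchain, which joins secreted antibodies, measured 14.2 to 90.3 CPM (median 48.9) in stomach and 1.98 to 7.96 CPM (median 3.64) in liver (log2 ratio 3.51 ± 0.20, adjusted p = 3.7e-17). Mast cell genes were higher in stomach for 9 of 11, with Mcpt1, a mucosal protease, at 10.5 to 59.5 CPM (median 17.2) against 0.603 to 5.29 CPM (median 2.84). Of 4 blood cell genes 3 were higher in liver, and haemoglobin Hba-a2 measured 152 to 959 CPM (median 627) there and 40.7 to 198 CPM (median 105) in stomach. Calls higher in stomach were made for 6 of 8 markers of pancreatic acinar cells, 10 of 11 of striated muscle and 7 of 9 of adipocytes. They were made for 2 of 3 of mesothelium and 8 of 12 of enterocytes, against 44.6% of all tested genes. Ctrb1, a chymotrypsinogen, had no count in liver and was at least 705-fold higher in stomach, where it measured 4.54 to 46.5 CPM (median 14.1). The acinar genes Prss1, Pnlip and Amy2a3 were too low to be tested in either organ. Striated muscle genes summed to 44.2 to 1703 CPM in stomach, highest in male replicates 2 and 3 and female replicate 3, and to 5.16 to 11.2 CPM in liver. Adipoq, an adipocyte hormone, measured 1.71 to 22.9 CPM (median 9.58) in stomach and had no count in liver. Summed acinar levels were 930 to 2871 CPM in stomach, most of it Clps, and 0.155 to 551 CPM in liver, and summed adipocyte levels 269 to 480.3 and 60.5 to 129 CPM. The part of attached muscle, fat or pancreas in the stomach values was not tested. Enterocyte genes moved both ways: Mttp, which loads lipid onto lipoproteins in hepatocytes and enterocytes, had a log2 ratio of -10.89 ± 0.21 (adjusted p = 3.6e-30) and Vil1, of the brush border, one of 3.78 ± 0.33 (adjusted p = 2.0e-12). The summed level of the enterocyte list was higher in liver, at 1401 to 2982 CPM against 117 to 262 CPM in stomach.

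For some reactions that several isozymes can catalyze, a different gene was higher in each organ. Of 46 tested isozyme genes 20 were higher in liver, 24 in stomach and 2 were not called. All tested genes were divided in a similar way, with 40.1% higher in liver and 44.6% in stomach. Glycogen synthase Gys2 measured 45.8 to 101 CPM (median 68.7) in liver and 0 to 0.215 CPM (median 0.0786) in stomach, whereas Gys1 measured 2.36 to 6.51 CPM (median 3.73) in liver and 17.0 to 31.2 CPM (median 24.7) in stomach, log2 ratios of -9.56 ± 0.18 and 2.67 ± 0.09. The same exchange was seen for glycogen phosphorylase, with Pygl at -4.79 ± 0.09 and Pygb at 4.12 ± 0.12 on the log2 scale. Hexokinase 1, Hk1, measured 4.33 to 13.4 CPM (median 8.96) in liver and 92.9 to 161 CPM (median 123) in stomach, and aldolase A, Aldoa, had a ratio of 2.82 ± 0.08. For glucose transport Slc2a2 had -10.92 ± 0.22, Slc2a1 2.53 ± 0.12 and Slc2a4, the insulin-responsive carrier, 9.83 ± 0.15. Slc2a4 measured 50.4 to 72.0 CPM (median 64.1) in stomach and at most 0.160 CPM in liver. Gls2, a glutaminase, had -5.71 ± 0.14. For hexokinase, aldolase, glutaminase and lactate dehydrogenase a single gene is given here, which shows no exchange between genes. For S-adenosylmethionine synthesis Mat1a had -12.63 ± 0.16 and Mat2a 1.85 ± 0.08. Fbp1 and Fbp2, fructose bisphosphatases, had -9.14 ± 0.18 and 5.84 ± 0.26. All of these ratios, with that of Hk1 (3.92 ± 0.10), were called with an adjusted p of 2.9e-19 or lower, and none of these genes overlapped between organs. Arginase Arg1 had a ratio of -8.09 ± 0.16, and Arg2 had 2 counts in all liver libraries together against 0.673 to 1.80 CPM (median 1.16) in stomach, a ratio of 78.4 (95% counting interval 21.7 to 647) toward stomach. Lactate dehydrogenase showed the widest gap for Ldhb, the heart form, at 1.82 to 5.61 CPM (median 2.66) in liver and 119 to 169.9 CPM (median 145) in stomach (log2 ratio 5.51 ± 0.12, adjusted p = 1.5e-28). Enolase Eno1 was one of the 2 not called, at 0.05 ± 0.05 (adjusted p = 0.42). It was called higher in stomach by DESeq2 (0.14, adjusted p = 0.0046), with DESeq2's size factors in edgeR (0.14, adjusted p = 0.022) and with total counts alone (1.103, adjusted p = 1.0e-17).

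**Figure D3:**
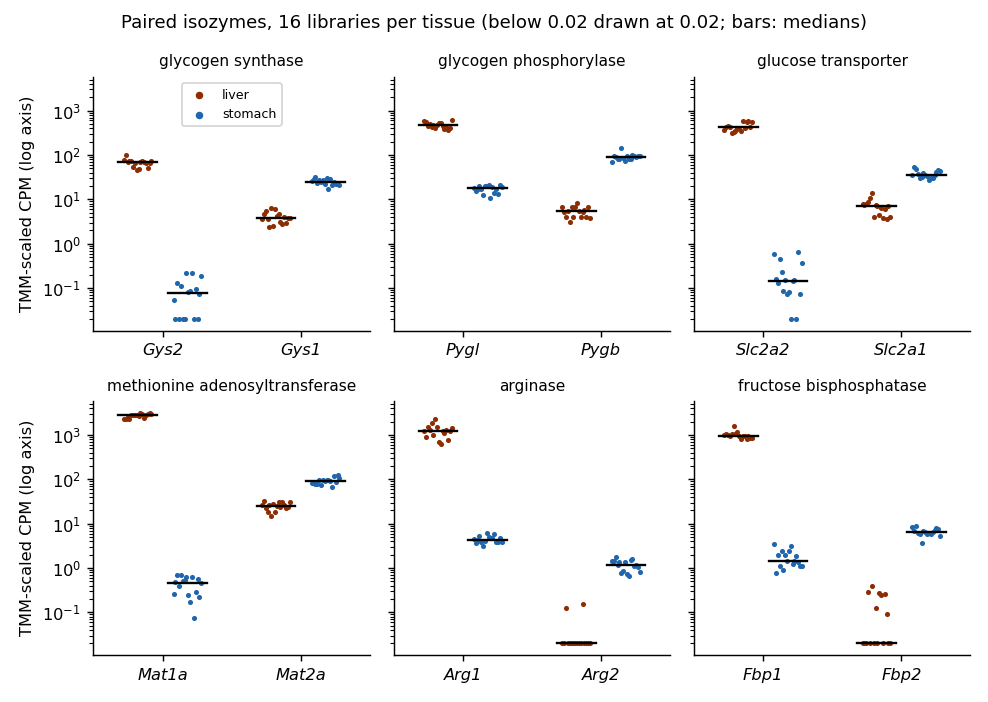
Levels in CPM (log axis, libraries below the plotted floor drawn at it) of the isozyme pairs of 6 reactions in each library, with bars at the median of the organ. In each pair the first gene is higher in all 16 liver libraries and the second in all 16 stomach libraries.

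Which abundant genes were alike in both organs depended on the scaling. The 10 genes with at least 100 CPM in both that lay nearest to a ratio of 0 were Tjp1, Rtn3, Zc3h10, Mt-co3, Rpl36a, Smg1, Tuba1c, Fam162a, Pdha1 and H1f2. Pdha1, a subunit of pyruvate dehydrogenase, measured 97.7 to 181 CPM (median 148) in liver and 121 to 154 CPM (median 145) in stomach (log2 ratio -0.01 ± 0.06, adjusted p = 0.89). Of 26 cytosolic ribosomal protein genes 18 were not called (median 0.038). Of 13 genes of mitochondrial DNA 7 were not called and 6 were higher in liver (median -0.158) on the TMM scale, whereas their share of all counts was higher in every stomach library, at 10.8% to 19.5%, than in any liver library, at 5.27% to 9.11%. Nuclear genes of the respiratory chain were called higher in liver for 23 of 34, with a median of only -0.304, within the shift between scalings. Several genes in common use as references for normalization were unequal: B2m had -3.07 ± 0.10 (adjusted p = 2.5e-24) and Hprt1 -1.73 ± 0.12 (adjusted p = 1.7e-14), both beyond the shift, and Ywhaz ran the other way at 1.23 ± 0.06 (adjusted p = 1.7e-18). Of the 21 reference genes listed, 15 were higher in liver and 4 in stomach on the TMM scale (median -0.797).

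Proliferation genes were higher in stomach for 28 of 30 (16 beyond 2-fold, median log2 ratio 1.34), and none was higher in liver. Mki67, present in dividing cells, measured 4.10 to 62.8 CPM (median 12.8) in liver and 27.0 to 80.1 CPM (median 57.8) in stomach (log2 ratio 1.94 ± 0.22, adjusted p = 1.6e-09). The ranges of the 2 organs overlapped for 28 of the 30. Of all tested genes 44.6% were called higher in stomach, and for 40.1% the ranges did not overlap in either direction. Males and females differed within liver: 25 of the 30 were higher in male than in female liver, and the ratio of stomach over liver was larger in females for 21. Among all tested genes 24.6% differed between the sexes in liver, in either direction, and the ratio was larger in females for 5.78%.

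The difference between the organs depended on sex for 1687 genes (11.2%), tested as the ratio of stomach over liver in females minus that in males. It was larger in females for 875 (5.78%) and in males for 812 (5.37%). The sex difference itself was larger in liver for 1631 of the 1687 genes. Female and male livers differed for 3719 genes (24.6%), whereas female and male stomachs differed for 30 (0.198%), or for 62 by DESeq2. Within batch 1 and batch 2 alone the ratio of organs depended on sex for 465 and 733 genes, livers differed between the sexes for 1260 and 2911, and stomachs for 19 and 10. Of 26 listed sex-dependent liver genes 25 were called between the sexes in liver, 10 higher in females and 15 in males, and 0 in stomach. The ratio of organs depended on sex for 17 of them.

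Mup5, a major urinary protein, a secreted carrier of pheromones, measured 11727 to 45012 CPM (median 22376) in male liver and 0.512 to 10.2 CPM (median 1.72) in female liver. In stomach it was at most 1.23 CPM, and the ratio of organs differed between the sexes by 15.65 ± 1.33 on the log2 scale (adjusted p = 4.3e-10). In females the ratio still favoured liver, at -3.39 on the log2 scale. Its family has near-identical copies, and reads may be shared. Hsd11b1, which regenerates glucocorticoids, measured 205 to 790.1 CPM (median 381) in male liver and 4.46 to 16.2 CPM (median 8.30) in female liver, against 3.85 to 11.4 CPM (median 6.34) in stomach (difference 5.71 ± 0.32, adjusted p = 2.3e-14). Trim24, a transcriptional cofactor, ran the other way, at 6.11 to 19.9 CPM (median 10.2) in male liver, 188 to 412 CPM (median 310.5) in female liver and 19.7 to 29.2 CPM (median 22.3) in stomach (difference -4.71 ± 0.25, adjusted p = 7.8e-15). Cux2, a homeodomain repressor of male-biased genes in mouse liver, measured 0.394 to 7.15 CPM (median 2.44) in male and 82.7 to 171 CPM (median 145) in female liver (difference -5.81 ± 0.38, adjusted p = 8.1e-13). Lifr, the receptor of leukaemia inhibitory factor, differed by -6.79 ± 0.40 (adjusted p = 7.5e-14).

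Among cytochromes P450, Cyp2c11, the main male-specific form of rat liver, measured 1164 to 3141 CPM (median 2259) in male and 0 to 2.07 CPM (median 0.336) in female liver (difference of ratios 11.60 ± 1.87, adjusted p = 5.1e-05). Cyp2c12, the female form, measured 25.5 to 323 CPM (median 128) in male and 5458 to 9729 CPM (median 7169) in female liver, a log2 difference of 5.84 ± 0.46 (adjusted p = 1.4e-11), but its ratio of organs was not called as sex dependent (adjusted p = 0.21; it was called by DESeq2, at 0.0013, and with the replicate block, at 0.0017). The sulfotransferase Sult1e1 measured 1249 to 4157 CPM (median 1914) in male and 0 to 0.673 CPM (median 0.191) in female liver, while Sult2a1 was higher in females, by 2.20 ± 0.25 (adjusted p = 2.2e-07). Prlr, the prolactin receptor, measured 15.9 to 82.4 CPM (median 48.6) in male and 678 to 1559 CPM (median 964) in female liver (difference of ratios -5.16 ± 0.55, adjusted p = 4.5e-08). Within 1 batch the calls of Mup5 (batch 1, 13.29, adjusted p = 0.083) and Sult1e1 (batch 2, 14.55, adjusted p = 0.066) were lost.

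For 112 genes the organ with the higher level was called in both sexes and was not the same one. In 21 of them the ratio exceeded 1 on the log2 scale in each sex. Cpa1, pancreatic carboxypeptidase A1, measured 0 to 0.439 CPM (median 0) in male liver, 14.8 to 493.2 CPM (median 194) in female liver and 4.35 to 21.1 CPM (median 11.4) in stomach (log2 ratio 6.401 in males and -4.45 in females). The acinar list, Cpa1 included, summed to 0.155 to 2.36 CPM in male liver and 54.0 to 551 CPM in female liver. In female liver replicate 3, where that sum was 54.0 CPM, Cpa1 itself measured 14.8 CPM. The source of these counts was not tested. Ctrb1, of the same list, had no count in any liver library. Spin2b, a spindlin-family chromatin reader, ran opposite to Cpa1, at 5.89 to 26.8 CPM (median 16.4) in male liver and 0 to 0.256 CPM (median 0.0455) in female liver. Its log2 ratio was -2.09 in males and 4.96 in females. Also among the 21 were Ky, Adh1-ps1, Dusp15, Rasd2, Trim24, Ctxnd1, Car12, Edil3, Stk32c, Abcd2, Unc5a, Bin2, Bcl6, Stxbp5l, Nim1k, Gfra1, Sult1c2al1 and Nox4. In batch 1 alone the dependence on sex was not called for Abcd2 (adjusted p = 0.12), Adh1-ps1 (0.059), Bcl6 (0.081), Edil3 (0.32), Ky (0.094) and Unc5a (0.10), and in batch 2 alone for Stk32c (0.15) and Stxbp5l (0.17). For Bcl6 the difference of ratios was 1.25 in batch 1 against 2.73 in all libraries.

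**Figure D4:**
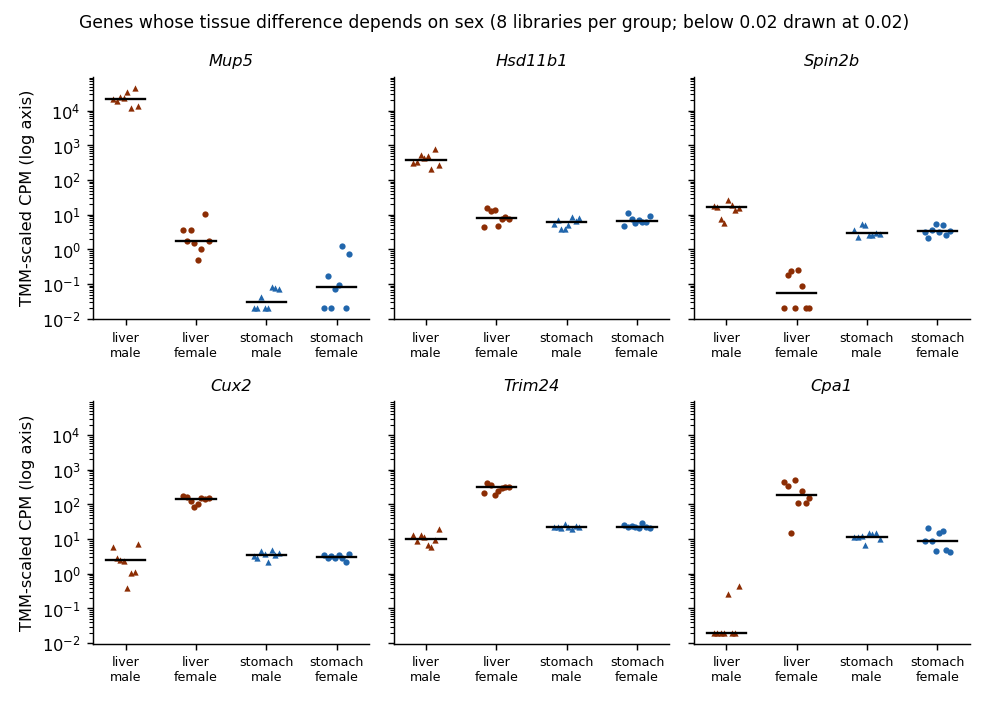
Levels in CPM (log axis, libraries below the plotted floor drawn at it) of 6 genes in male and female libraries of each organ, with bars at the median of each group of 8. In liver the sexes separate for all 6 genes, and in stomach their ranges overlap for all 6.

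The 30 genes that differed between female and male stomach included the Y-linked Ddx3y, Eif2s3y, Uty and Kdm5d, lower in females, and the X-linked Kdm6a and Eif2s3, higher in females. Outside the sex chromosomes, Tfrc, the transferrin receptor, measured 148 to 268 CPM (median 196) in male and 76.6 to 125 CPM (median 119) in female stomach, a log2 difference of -0.97 ± 0.13 (adjusted p = 2.3e-05). Tff2, the trefoil peptide of neck mucus, had overlapping ranges in the sexes, as it measured 33.1 to 137 CPM (median 71.6) in males and 85.4 to 164 CPM (median 128) in females (log2 difference 1.07 ± 0.16, adjusted p = 2.0e-04). The interferon-responsive genes Isg15 and Irf1 were higher in female stomach, by 1.64 ± 0.33 (adjusted p = 0.018) and 0.67 ± 0.14 (adjusted p = 0.028). Within batch 1 and batch 2 alone Tff2 differed by 0.97 and 1.15, Isg15 by 1.55 and 1.76 and Irf1 by 0.75 and 0.64, none of them called, and Tfrc by -1.07, called, and -0.92, not called. The Irf1 call was also lost without the batch term (adjusted p = 0.074) and without any 1 of 8 stomach libraries (male replicates 1, 5, 6 and 8 and female replicates 5 to 8; adjusted p from 0.051 to 0.11). That of Isg15 was lost without male replicate 4 (0.053) or female replicate 7 (0.066).

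Some genes that both organs expressed were represented by different transcripts. Of 16600 transcripts tested, 361 of 224 genes (2.17%) differed in their share of the gene by at least 25 percentage points with an adjusted p under 0.05. Transcripts of Hnf4a were nearly exchanged. Transcript ENSRNOT00000078703 made up 96.5% ± 4.83 (SD, n = 16) of Hnf4a in liver and 2.80% ± 4.11 in stomach, and ENSRNOT00000089893 made up 1.22% ± 1.55 in liver and 88.3% ± 5.44 in stomach. Hnf4a is known to be transcribed from separate promoters in different epithelia. For G6pc1, ENSRNOT00000085831 made up 77.0% ± 6.01 in liver and 0% in all stomach libraries, so the G6pc1 counts of stomach came from other transcripts of the gene. For Tf, ENSRNOT00000045628 made up 98.4% ± 1.16 in liver and 19.3% ± 6.47 in stomach, where ENSRNOT00000012725 made up 80.7% ± 6.47.

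Slco2b1, an organic anion carrier, was carried by ENSRNOT00000024281 in liver, at 91.0% ± 3.57, and by ENSRNOT00000095615 in stomach, at 99.4% ± 1.08. Fpgs, which traps folates in cells, had 83.5% ± 7.29 of ENSRNOT00000106975 in liver and none in stomach. Saa4, a serum amyloid apolipoprotein, had 99.2% ± 1.51 of ENSRNOT00000086856 in stomach and 0.276% ± 0.121 in liver, at a mean of 97.9 gene counts per stomach library. In muscle genes, Tpm1, tropomyosin 1, had 82.0% ± 4.31 of ENSRNOT00000024617 in liver and 7.76% ± 2.13 in stomach. Cald1, caldesmon, had 55.2% ± 8.67 of ENSRNOT00000041264 in liver and 0.377% ± 0.157 in stomach, although its gene level differed little, at 0.22 ± 0.09 (adjusted p = 0.035) on the log2 scale, a call that was lost without any 1 of 29 libraries. Ighm, the heavy chain of IgM, had 23.4% ± 12.6 of ENSRNOT00000006888 in liver and 95.2% ± 3.22 in stomach. The remaining genes among the 10 with the largest shift of share were Cpamd8, Rfx6, Il1rn, Shroom3, Mgat3 and Sbk1. For Rfx6 the mean was 22.6 gene counts per liver library and for Cpamd8 23.7 per stomach library, so their shares rest on few counts.

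**Figure D5:**
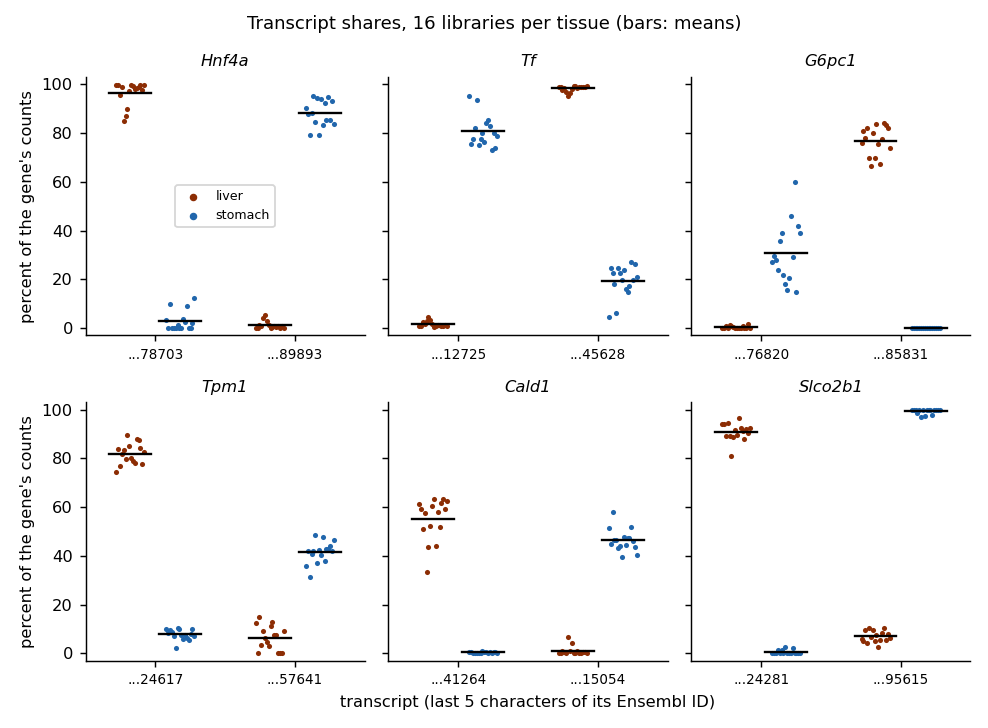
Share of a gene's counts (%) held by 1 transcript in each library, for transcripts of genes used differently in the organs, with bars at the mean of the 16 libraries. The Hnf4a transcripts exchange places, from 96.5% to 2.80% and from 1.22% to 88.3% between liver and stomach.

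Low counts of the other organ's most abundant genes were present in some libraries. Pgc, at a median of 1.52 CPM in liver, reached 43.5 CPM in male replicate 1 and 55.7 CPM in female replicate 6. Female stomach replicate 6 held the highest Alb value of the stomachs, 22.02 CPM, against 87406 CPM or more in every liver. Where such counts came from was not tested. Without these 2 liver libraries 12798 genes were called, and 6493 passed the test beyond 2-fold. The comparison was repeated in libraries of exposed rats of both dose groups: of the 12814 calls 12321 had the same sign and were called again, and of the 6413 calls beyond 2-fold 6406.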

How the data were processed

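Polyadenylated RNA of liver and stomach was sequenced, and the authors deposited estimated counts (expected counts, which need not be whole) per gene and per transcript, 1 table per organ. The build was mRatBN7.2 and the tools named were Salmon 1.10.3, STAR 2.7.11b, UMI-tools 1.1.5 and Trim Galore 0.6.10, per the submitters' processing notes. No setting or strand option is stated in the labels, so reads shared by copies or by overlapping genes cannot be told apart. The vehicle libraries were joined over 30562 gene identifiers, 4380 of them without a symbol, and the expected counts were rounded. No pair of libraries held identical values.

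In R 4.3.3, low genes were removed with filterByExpr (edgeR 4.0.16; min.count 10, min.total.count 15). Library sizes were scaled by TMM and a quasi-likelihood model was fitted with a term per organ and sex and a term for batch. The contrasts were stomach against liver averaged over the sexes, the same against a 2-fold change (glmTreat), the difference of that ratio between the sexes, and females against males within each organ. The Benjamini-Hochberg adjustment ran over all tested genes. Transcript use was tested with diffSpliceDGE for genes with a mean of at least 20 counts in each organ. Library measures were compared by a two-sided permutation test with 100000 resamples. Intervals and the floor of 3 counts cover counting error only. On simulated counts of 14712 genes the comparison of organs recovered 54 of 68 genes changed 1.5-fold, 63 of 66 changed 2-fold and 65 of 65 changed 4-fold, and 12 of its 194 calls (6.19%) were false. The simulation changed few genes, up and down alike, from 1 mean profile for both organs. It therefore cannot show recovery or false calls where most genes differ and the scaling turns directions, as between these organs.

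The libraries and gene lists were chosen with earlier results of these data known. Genes were named by a rule with 7 parts: the 12 largest log2 ratios toward each organ among genes with a symbol, a call, a mean of at least 100 CPM in the higher organ and no overlap of libraries; up to 5 of the most abundant members of each list and any gene that defines an organ; the 10 most abundant genes of each organ; the 8 smallest p-values each way for dependence on sex with the sex-dependent liver genes; the 10 ratios nearest to 0 at 100 CPM or more in both organs; the 10 largest differences in transcript share; and isozymes of 1 reaction. Some were left out for brevity or are not reported here, and genes named outside the rule were chosen after their values were seen. RefSeq promoters (build GRCr8) were used for sequence only. Alternatives changed the scaling, filter, batch term, test, libraries and thresholds.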

Additional observations from a re-analysis of the deposited data

Results flagged for a closer look

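The log2 ratio of stomach over liver differed between females and males, by the test of that difference, for 30 of the genes described. It was larger in females for Mup5 15.65, Sult1e1 14.57, Cyp2c11 11.60, Nox4 8.63, Sult1c2al1 8.21, Spin2b 7.06, Gfra1 6.09, Hsd11b1 5.71, Nim1k 4.55, Fga 2.90, Stxbp5l 2.77, Bcl6 2.73, Bin2 2.56, Gkn2 2.16 and B2m 0.58, where each value is the ratio in females minus that in males. It was smaller in females for Cpa1 -10.86, Ky -10.17, Adh1-ps1 -7.58, Dusp15 -6.98, Lifr -6.79, Cux2 -5.81, Rasd2 -5.51, Prlr -5.16, Trim24 -4.71, Ctxnd1 -4.62, Car12 -3.93, Edil3 -3.78, Stk32c -3.14, Abcd2 -2.86 and Unc5a -2.82. Within 1 batch alone 10 of these calls were lost, for Mup5, Abcd2, Adh1-ps1, Bcl6 (1.25), Edil3, Ky and Unc5a in batch 1 and for Sult1e1, Stk32c and Stxbp5l (1.99) in batch 2. For some genes 1 organ held only traces, so the size of the difference is uncertain. Gkn2 was at most 2.68 CPM in male and 0.364 CPM in female liver, and Fga at most 0.000135% of counts in stomach. The Mup5 value joins a female minus male difference of -13.11 in liver with 2.54 in stomach, where it was at most 1.23 CPM.

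Among the 26 groups of 8 libraries whose values are given by sex, 5 held a library far from the other 7, where chance flags about 1 in 20 groups. They were Mup5 in female liver replicate 7 at 10.2 CPM, Cyp2c11 in female liver replicate 2 at 2.07 CPM, Cym in female stomach replicate 1 at 1798.5 CPM, and Sult1e1 in female liver replicate 7 at 0.673 CPM and in male liver replicate 7 at 4157 CPM. Female liver replicate 7 held 10.9 CPM of Pgc. The source of these values was not tested.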

How the results depend on the processing

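The count of genes called between the organs stayed between 11005 and 15345 under every alternative run, and the count beyond 2-fold between 5577 and 8716. Leaving out each library in turn gave 12802 to 12898, and 6448 to 6512 beyond 2-fold. The 6413 beyond 2-fold in all libraries lay below that whole range. The same fits gave 1409 to 2070 for dependence on sex, 2826 to 4206 between female and male liver and 21 to 44 between female and male stomach. Dependence on sex fell from 1687 genes to 465 in batch 1 alone and 733 in batch 2 alone, and the sex difference of liver from 3719 to 1260 in batch 1 alone; these fits hold fewer libraries. Female and male stomachs differed for 19 genes in batch 1 alone, 10 in batch 2 alone and 62 by DESeq2. With a minimum shift of 10 percentage points 694 transcripts were called instead of 361. The share of counts from genes without a symbol differed by 0.0624 points in males alone (permutation test, adjusted p = 0.22), and that of the 10 most abundant genes by -0.182 points in females alone (permutation p = 0.85), against 0.668 in all. Leaving out 1 library, the latter lay between 0.426 and 0.945, that of the 100 most abundant genes between -11.2 and -10.7, that of mitochondrial genes between 5.16 and 5.78, that of ribosomal genes between 0.458 and 0.544, that of plasma proteins between -23.8 and -23.3 and that of genes without a symbol between 0.135 and 0.164. The genes holding 50% of counts differed by 236 to 248 and the genes detected by 2493 to 2604.

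Among named genes, the direction changed for Cpa1 in females alone (-4.47), Trim24 in males alone (1.06) and, with total counts alone, Pdha1 (1.05). The cause was not tested. Total-count scaling kept the sign of 9068 of the 12814 calls, each still called, and turned 3336. Liver and stomach libraries of the same number were not taken as pairs, and the labels did not say whether they shared a rat. After group means were removed, 5 of 16 same-numbered libraries correlated over 0.1, and 5 of 16 correlated best with their own number. No chance level was worked out for these counts. They therefore cannot decide whether equal numbers mark the same rat, and pairing was not excluded. With the replicate block 12698 genes were called, 6418 beyond 2-fold, 1381 for dependence on sex and 343 transcripts. Leaving out the 2 liver libraries with the most Pgc and the alternatives for sex within an organ were chosen after seeing the data.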
